A study of Homo sapiens with 6 samples.

Results

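The genes described here encode the protein machinery of pre-mRNA splicing and the heterogeneous nuclear ribonucleoproteins (hnRNPs), measured in U2OS cells with and without E2F7 knockdown. Members were taken by name, as every identifier of the SRSF, SF3A or SF3B, SNRP, HNRNP and PRPF series that was listed at all 3 times, and 64 of the 11886 genes so listed were members: 21 hnRNP, 10 SRSF, 9 SF3A or SF3B, 11 SNRP and 13 PRPF genes. Of these, 62 are annotated as protein-coding and 2, HNRNPA1P10 and HNRNPA3P1, as transcribed pseudogenes in RefSeq. U2OS is an established human osteosarcoma line. Cells were transfected with siRNA directed at E2F7 (siE2F7) or with a non-targeting siRNA (siNT). All of them, controls included, had been held for 24 h in 4 mM hydroxyurea, which stalls DNA replication by depleting deoxynucleotides, and were collected 0, 3 and 12 h after its removal, times that the labels assign to G1/S, S phase and G2/M in that order. There was 1 library for each siRNA at each time, 6 in all.

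Introns are removed by the spliceosome, which is assembled on each intron from small nuclear ribonucleoproteins (snRNPs) and many further proteins. Sm proteins form a ring around the snRNA of most snRNPs, SF3A and SF3B hold the U2 snRNP at the branch point, and PRPF proteins act in the U4/U6.U5 tri-snRNP and in the later, catalytic stages. SR proteins of the SRSF series bind exons and favour their use, while hnRNPs coat nascent RNA, often weaken splice site choice, and also serve in RNA export, stability and translation.

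Levels are given as FPKM, which divides the fragments of a gene by its transcript length and by the size of the library, so they can be set side by side between genes. limma was run over all 11886 genes on log2(FPKM + 0.1) values, blocking on time, and a gene was called at a Benjamini-Hochberg adjusted p under 0.05. Log2 changes below are on that scale, are siE2F7 minus siNT, and carry the standard error of the fit. E2F7, a transcriptional repressor of the E2F family, stood at 9.48, 10.6 and 5.52 FPKM in the siE2F7 libraries of 0, 3 and 12 h, against 20.3, 29.4 and 16.6 FPKM in the siNT libraries, a log2 change of -1.37 ± 0.10 (limma, adjusted p = 0.00102). Every siE2F7 library was below every siNT library. Without the time block E2F7 was not called (limma, adjusted p = 0.12). All 6 mesenchymal and osteoblast markers checked were listed, from VIM at 758.9 to 886.2 FPKM down to RUNX2 at 2.83 to 4.60 FPKM. Of 7 markers of other cell types 2 were listed, EPCAM at 2.33 to 3.27 and CDH1 at 1.29 to 1.69 FPKM. The ranges of RUNX2 and EPCAM overlap. Summed FPKM ran from 363727 to 368994 in the siE2F7 libraries and from 351305 to 375954 in the siNT libraries, with the siNT library of 3 h the lowest. The labels do not say whether the times are separate cultures, so the p-values reflect how these 6 libraries vary, which may be technical. Libraries of bulk cells cannot tell fewer cells of a state from less RNA per cell.

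Splicing genes as a whole differed little between siE2F7 and siNT, and a single member, SNRPD2, differed a lot. Whether a change in siE2F7 came from loss of E2F7 or from another effect of the siRNA was not tested. Of the 64 members 6 rose, 2 fell and 56 were not called (limma, Benjamini-Hochberg). Rises made up 9.38% of members against 6.76% of all genes tested, and falls 3.12% against 7.13%, so the counts lie near the background. An unadjusted p under 0.05 was found in 19 of 64 members, 15 with higher and 4 with lower levels in siE2F7, beside 30.2% of all genes (13.5% higher and 16.7% lower). The 6 that rose were the hnRNP genes HNRNPA0, HNRNPAB, HNRNPA2B1, HNRNPD and HNRNPF and the U2 snRNP gene SF3A2. SNRPD2, a core Sm gene, and PRPF19, an E3 ubiquitin ligase of the spliceosome, fell. The median log2 change of members was 0.08, beside -0.03 over all genes, and 56 of 64 members had a change smaller than 0.25 in size, a share of 87.5% against 70.9% of all genes. The median standard error was also smaller, 0.07 in members against 0.09 over all genes. The part of expression level in this contrast was not tested.

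Direction leaned upward without reaching the threshold in most genes. siE2F7 was above siNT at every time in 32 members, a share of 50.0% against 22.8% of all genes, and below at every time in 5, a share of 7.81% against 28.6%. By family, the share above at every time was 81.0% in hnRNP, 66.7% in SF3A and SF3B and 40% in SRSF genes. It was 23.1% in PRPF and 18.2% in SNRP genes, near the share of all genes. In 14 members, 11 of them hnRNP genes, all siE2F7 libraries lay above all siNT libraries (21.9%, against 6.88% of all genes). In 4 they lay below (6.25%, against 8.76%). The members are abundant transcripts, with a median of 73.2 FPKM over the 6 libraries against 11.2 FPKM for all genes. They took 1.66%, 1.72% and 1.75% of all FPKM in the siE2F7 libraries of 0, 3 and 12 h, against 1.60%, 1.63% and 1.65% in siNT.

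**Figure D1:**
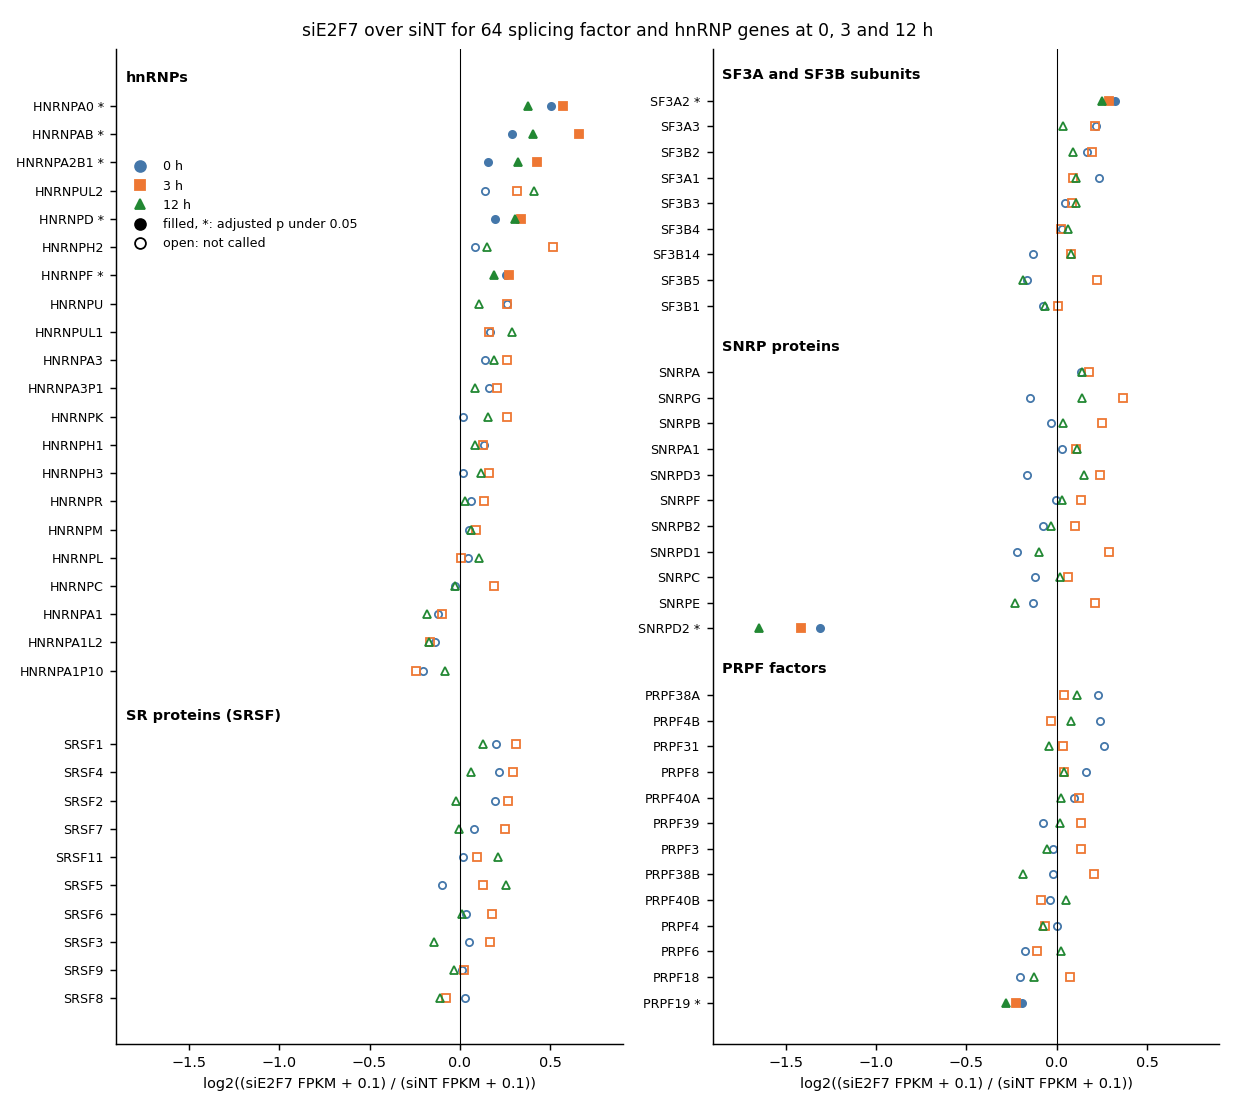
Log2 ratio of siE2F7 over siNT for each of the 64 members at 0, 3 and 12 h (x axis), grouped by family and ordered by mean change; filled symbols and asterisks mark the 8 members called by limma. SNRPD2 lies between -1.65 and -1.31, far from every other member. A positive mean change is found in 18 of 21 hnRNP genes, beside 5240 of all 11886 genes.

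SNRPD2 encodes Sm D2, which pairs with Sm D1 in the ring assembled on the spliceosomal snRNAs. It lies on chromosome 19 (hg19, 46190712 to 46195443) and its listed locus was shared with no other entry. SNRPD2 was at 84.5, 60.5 and 63.4 FPKM in siE2F7 at 0, 3 and 12 h, against 210.0, 161.2 and 198.9 FPKM in siNT. Every siE2F7 library was below every siNT library, and 40.3%, 37.5% and 31.9% of the siNT level was left at the 3 times. The log2 change was -1.46 ± 0.08 (95% interval -1.65 to -1.27; limma, adjusted p = 0.000828), a 2.75-fold fall that placed SNRPD2 at rank 31 from the lowest among 11886 genes. The call held in all 12 alternatives tried, including those that left out 1 time or the time block, with log2 changes from -1.53 to -1.36. QPCTL, the neighbouring gene at 46195741 to 46207248, was at 13.2, 14.1 and 12.3 FPKM in siE2F7 and 17.01, 15.4 and 15.3 FPKM in siNT, a log2 change of -0.27 ± 0.08 that was not called (limma, adjusted p = 0.0676).

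The other core Sm genes did not share this change. SNRPB, SNRPD1, SNRPD3, SNRPE, SNRPF and SNRPG had log2 changes between -0.05 and 0.12, and none of them was called. SNRPD1, the ring partner of SNRPD2, was at 58.9, 60.9 and 59.3 FPKM in siE2F7 at 0, 3 and 12 h, against 68.7, 49.9 and 63.5 FPKM in siNT, with overlapping groups and a 95% interval of -0.25 to 0.22 for its log2 change. SNRPG, the most abundant of the ring, was at 233.9, 258.2 and 270.3 FPKM in siE2F7, against 259.0, 200.2 and 245.4 FPKM in siNT. As a share of the summed FPKM of the 7 core Sm genes, SNRPD2 made up 10.6%, 7.24% and 7.48% in siE2F7 at 0, 3 and 12 h, against 21.4%, 20.1% and 20.8% in siNT. SNRPD2 stood at 0.859, 0.581 and 0.624 times the median of the other 6 in siE2F7, against 1.98, 1.78 and 2.02 times in siNT, where it was the second most abundant of the ring after SNRPG at every time.

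**Figure D2:**
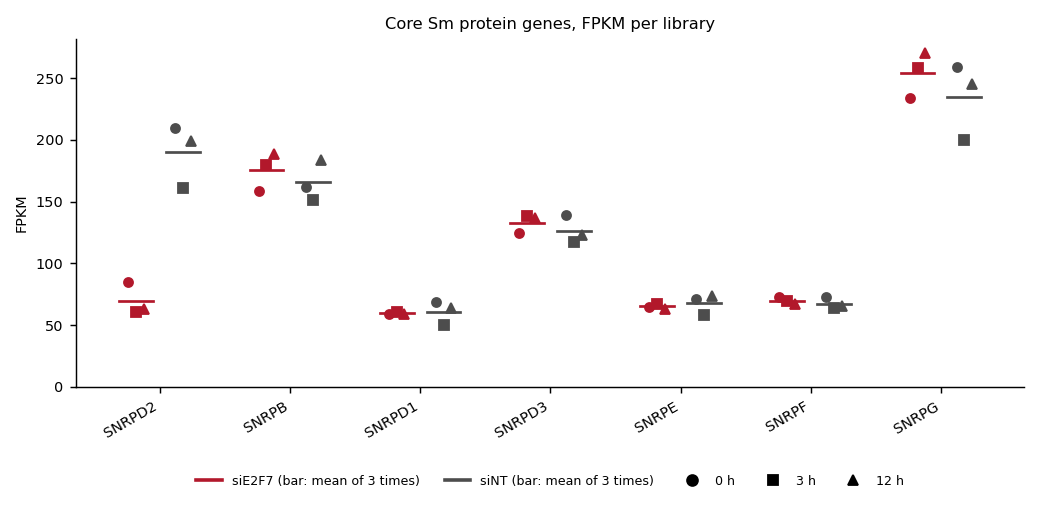
FPKM of the 7 core Sm genes (y axis, linear from 0), siE2F7 left and siNT right for each gene, with 1 point per library and a bar at the mean of the 3 times. SNRPD2 separates, with all siE2F7 points at 84.5 FPKM or less and all siNT points at 161.2 FPKM or more, while the points of the other 6 genes overlap.

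The smaller Sm differences varied with time. At 3 h all 6 other core Sm genes were higher in siE2F7, with a median log2 ratio of 0.24; at 0 h all 6 were lower, with a median of -0.14, and at 12 h 4 were higher, with a median of 0.03. Of 77 ribosomal protein genes, 72 were also higher in siE2F7 at 3 h (median 0.13) and 1 at 0 h (median -0.14), while at 12 h, unlike the Sm genes, 2 were higher (median -0.14). Their part in the Sm values was not tested. Of the SNRP genes that bind single snRNPs, SNRPA, the U1 A protein, had siE2F7 above siNT in all libraries, 48.9, 51.7 and 46.1 FPKM against 44.5, 45.6 and 41.8 FPKM, but was not called (log2 change 0.15 ± 0.06; limma, adjusted p = 0.15). SNRPC of the U1 snRNP and SNRPA1 and SNRPB2 of the U2 snRNP had log2 changes of -0.01, 0.08 and -0.00 and overlapping groups. In all, 1 of 11 SNRP genes fell, a share of 9.09% beside 7.13% of all genes, and none rose (limma). An unadjusted p under 0.05 was found in 2 of the 11, beside 30.2% of all genes.

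To show the start of the gene with the largest change, the 250 bases before its farthest upstream start in RefSeq are given beside those of HNRNPA0 and HNRNPAB, the members with the largest rises. Windows are from the GRCh38.p14 build, which differs from the hg19 build of the expression tables, and are printed 5′ to 3′ with CCAAT, or its reverse complement ATTGG, in capitals. RefSeq gives SNRPD2 further starts downstream, and neither of the other windows, chr19:45691993-45692242 and chr19:45691954-45692203, holds these letters. The printed windows of SNRPD2, HNRNPA0 and HNRNPAB lie at chr19:45692317-45692566 (minus strand), chr5:137754364-137754613 (minus strand) and chr5:178204283-178204532 (plus strand).
SNRPD2: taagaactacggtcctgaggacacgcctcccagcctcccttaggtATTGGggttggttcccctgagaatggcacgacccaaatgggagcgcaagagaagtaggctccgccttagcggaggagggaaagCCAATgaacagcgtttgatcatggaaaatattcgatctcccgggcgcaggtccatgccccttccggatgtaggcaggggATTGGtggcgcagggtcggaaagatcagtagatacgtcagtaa
HNRNPA0: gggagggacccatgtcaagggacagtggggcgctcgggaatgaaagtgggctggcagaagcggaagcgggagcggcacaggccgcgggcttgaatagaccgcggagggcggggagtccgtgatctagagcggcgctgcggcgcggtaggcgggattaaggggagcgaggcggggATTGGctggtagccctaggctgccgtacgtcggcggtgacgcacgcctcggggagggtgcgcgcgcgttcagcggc
HNRNPAB: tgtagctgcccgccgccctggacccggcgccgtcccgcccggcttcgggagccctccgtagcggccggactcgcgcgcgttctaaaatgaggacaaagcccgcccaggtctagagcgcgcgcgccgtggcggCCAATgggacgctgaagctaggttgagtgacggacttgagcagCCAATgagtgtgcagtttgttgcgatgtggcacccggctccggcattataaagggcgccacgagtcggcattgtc

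E2F factors bind GC-rich sites, and the 250 bases before the start were searched on both strands for TTTCCCGC, TTTGGCGC, TTTGCCGC and TTTCGCGC. Windows were found for 55 of the 64 members, matched by symbol or synonym. Among these 55, the letters stood before 4, HNRNPA3, HNRNPK, HNRNPUL1 and SF3B1 (7.27%), against 4.60% of 15843 protein-coding genes and 2.79% of all 35116 windows. None of the 8 called members had them, which says only that these letters are not in that window. A further string, TTCCCGCC, which overlaps the first by 7 letters and was chosen after the values were seen, stood before 6 members (10.9%, against 4.60% of protein-coding genes), among them HNRNPA2B1 and HNRNPF, both of which rose. CCAAT, also chosen after the values were seen, stood before 28 of 55 (50.9%, against 40.2%) and before 6 of the 8 called, where a gene counted if any of its windows held the letters, as for SNRPD2. Stretches of 60 bases around the E2F-type letters, in capitals, are given for the called genes HNRNPA2B1 (chr7:26200822-26200881, minus strand) and HNRNPF (chr10:43397392-43397451, minus strand) and for 2 that were not called, HNRNPK (chr9:83980753-83980812, minus strand), which has both kinds, and HNRNPUL1 (chr19:41264136-41264195, plus strand), where both overlap.
HNRNPA2B1: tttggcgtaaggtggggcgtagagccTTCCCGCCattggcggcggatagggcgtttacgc
HNRNPF: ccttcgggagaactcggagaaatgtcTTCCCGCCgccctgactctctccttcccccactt
HNRNPK: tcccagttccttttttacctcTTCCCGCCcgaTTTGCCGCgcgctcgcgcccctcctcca
HNRNPUL1: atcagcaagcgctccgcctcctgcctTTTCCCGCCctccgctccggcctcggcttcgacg

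The hnRNP genes held 5 of the 6 rises. Of 21 hnRNP genes 5 rose, none fell and 16 were not called (limma; 10 had an unadjusted p under 0.05 with a higher level in siE2F7 and 2 with a lower, beside 13.5% and 16.7% of all genes). The 5 rises are a share of 23.8%, beside 6.76% of all genes. Their median log2 change was 0.15, beside -0.03 over all genes. In 11 of the 21 all siE2F7 libraries lay above all siNT libraries, a share of 52.4% beside 6.88% of all genes. HNRNPA0, an intronless hnRNP A/B gene whose product binds AU-rich elements, was at 70.2, 64.7 and 72.9 FPKM in siE2F7 at 0, 3 and 12 h, against 49.5, 43.6 and 56.1 FPKM in siNT. All siE2F7 libraries were higher, and the log2 change was 0.48 ± 0.07 (limma, adjusted p = 0.00521). HNRNPAB, the hnRNP A/B protein linked to RNA transport, was at 153.0, 208.5 and 175.9 FPKM in siE2F7, against 125.4, 132.0 and 132.9 FPKM in siNT. Here too the groups did not overlap, and the siE2F7 library of 3 h was the highest (log2 change 0.45 ± 0.08; limma, adjusted p = 0.0155). Its listed locus includes AGXT2L2, so reads of the 2 genes may have been split. HNRNPA0 and HNRNPAB were also called when any 1 time was left out, but neither was called without the time block (adjusted p = 0.174 and 0.213), nor HNRNPAB without the variance trend (adjusted p = 0.0638).

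HNRNPA2B1, HNRNPD and HNRNPF rose by less. HNRNPA2B1, an hnRNP core protein and the most abundant member, was at 461.6, 525.0 and 531.9 FPKM in siE2F7 at 0, 3 and 12 h, against 413.8, 390.5 and 425.2 FPKM in siNT (log2 change 0.30 ± 0.08; limma, adjusted p = 0.048). HNRNPD, known as AUF1 and as a factor of mRNA decay, was at 224.8, 224.7 and 210.2 FPKM in siE2F7, against 196.8, 178.0 and 170.4 FPKM in siNT (log2 change 0.28 ± 0.07; adjusted p = 0.0365). HNRNPF, which binds G-rich RNA, was at 172.4, 189.6 and 184.4 FPKM in siE2F7, against 144.4, 157.0 and 161.8 FPKM in siNT (log2 change 0.24 ± 0.06; adjusted p = 0.0497). In each of these genes all siE2F7 libraries exceeded all siNT libraries. None of these calls held when any 1 time was left out, and HNRNPF lies next to the threshold, as does HNRNPUL2 on its other side (log2 change 0.29 ± 0.08; adjusted p = 0.0559).

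HNRNPA1 and its near copies had negative log2 changes, and none of them was called. HNRNPA1, the best known repressor of splice sites among hnRNPs, was at 272.6, 278.8 and 282.4 FPKM in siE2F7 at 0, 3 and 12 h, against 296.9, 298.9 and 320.9 FPKM in siNT. The siE2F7 libraries all lay lower, and the gene was not called (log2 change -0.14 ± 0.07; limma, adjusted p = 0.222) except after quantile normalization (adjusted p = 0.0426). HNRNPA1L2 and HNRNPA1P10, with log2 changes of -0.16 and -0.18 (adjusted p = 0.128 and 0.127), are near-identical copies, and the tables give HNRNPA1P10 the locus of HNRNPA1, so the values of the 3 entries are uncertain one by one. Summed, they came to 522.6, 508.4 and 548.5 FPKM in siE2F7, against 580.9, 566.4 and 608.3 FPKM in siNT. The ratio of HNRNPA2B1 to that sum was 0.883, 1.03 and 0.970 in siE2F7, against 0.712, 0.690 and 0.699 in siNT, without overlap; this ratio was chosen after its values were seen and has no test.

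**Figure D3:**
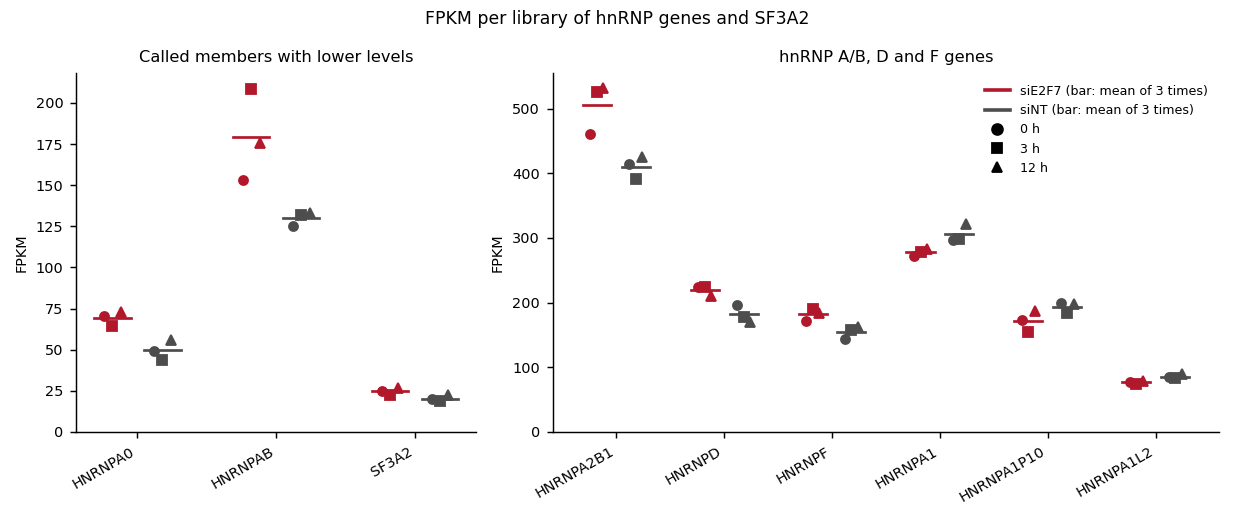
FPKM per library (y axes, linear from 0) of the 6 members that rose and of HNRNPA1 and its near copies, siE2F7 left and siNT right for each gene, with bars at the mean of the 3 times. All siE2F7 points lie above the siNT points in HNRNPA0, HNRNPAB, SF3A2, HNRNPA2B1, HNRNPD and HNRNPF, and below them in HNRNPA1 and HNRNPA1L2.

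The remaining hnRNP genes stayed between these limits. HNRNPU, HNRNPUL1, HNRNPA3 and HNRNPK had all siE2F7 libraries above siNT, with log2 changes of 0.21, 0.21, 0.19 and 0.14, and none was called. For HNRNPK, an RNA and DNA binding protein with KH domains, the levels were 293.4, 324.1 and 318.2 FPKM in siE2F7, against 289.8, 271.1 and 286.1 FPKM in siNT. HNRNPH2 had a log2 ratio of 0.52 at 3 h but 0.09 and 0.15 at 0 and 12 h, and its locus is shared with RPL36A and GLA. HNRNPC, HNRNPL, HNRNPM and HNRNPR, all abundant nuclear RNA binding proteins, had log2 changes from 0.04 to 0.08. The 95% interval for HNRNPC was -0.13 to 0.22.

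**Figure D4:**
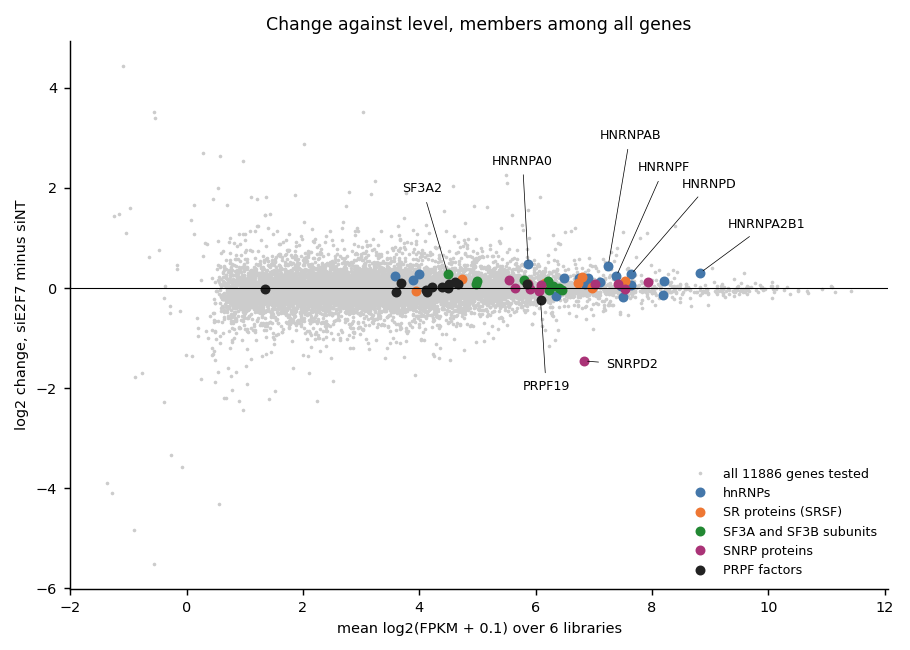
Log2 change of siE2F7 minus siNT (y axis) against mean log2(FPKM + 0.1) over the 6 libraries (x axis) for all 11886 genes (grey) and the 64 members (coloured by family), with the 8 called members named. Apart from SNRPD2 at -1.46, the members lie in a narrow band from -0.23 to 0.48.

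Among SF3A and SF3B subunits, which recognise the branch point within the U2 snRNP, 1 of 9 rose, a share of 11.1% beside 6.76% of all genes, and none fell (limma; 2 had an unadjusted p under 0.05, a share below the 30.2% of all genes). SF3A2 was at 25.1, 22.7 and 26.4 FPKM in siE2F7 at 0, 3 and 12 h, against 20.0, 18.6 and 22.2 FPKM in siNT, with no overlap (log2 change 0.29 ± 0.07; limma, adjusted p = 0.0311). This call was lost when any 1 time was left out. SF3A3, SF3B2 and SF3A1 had log2 changes of 0.16, 0.15 and 0.14 and were not called. SF3B1, the largest subunit and a frequent site of mutation in leukaemia, was at 69.4, 77.8 and 73.6 FPKM in siE2F7, against 73.1, 77.3 and 77.1 FPKM in siNT, with a 95% interval of -0.19 to 0.10. SF3B14, now named SF3B6, and SF3B5 had changes of 0.01 and -0.04. PHF5A, an SF3B subunit under another name, was at 37.8, 42.2 and 37.1 FPKM in siE2F7, against 57.3, 55.3 and 57.9 FPKM in siNT, and fell (log2 change -0.54 ± 0.07; limma, adjusted p = 0.00468).

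No SR protein gene was called among 10 (limma; 2 had an unadjusted p under 0.05, a share below the 30.2% of all genes), and the median log2 change was 0.10. SRSF1, the founding SR protein, was at 97.1, 139.6 and 128.6 FPKM in siE2F7 at 0, 3 and 12 h, against 84.4, 112.5 and 117.5 FPKM in siNT, a log2 change of 0.21 ± 0.07 (limma, adjusted p = 0.0762; called after quantile normalization, adjusted p = 0.0401). The siE2F7 library was the higher at each time, though the groups overlap, with both arms lowest at 0 h. SRSF2, the most abundant of the family, was at 176.7, 236.3 and 176.6 FPKM in siE2F7, against 154.4, 196.3 and 179.1 FPKM in siNT. Its locus is shared with MFSD11. SRSF4 and SRSF7 had log2 changes of 0.19 and 0.11, and SRSF3, SRSF9 and SRSF8 of 0.02, 0.00 and -0.05.

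PRPF genes were the least expressed family, with a median of 21.0 FPKM, and had a median log2 change of 0.02. Of 13, 1 fell, a share of 7.69% beside 7.13% of all genes, and none rose (limma). An unadjusted p under 0.05 was found in 1 of the 13, beside 30.2% of all genes. PRPF19, the ubiquitin ligase at the centre of the complex that activates the spliceosome, was at 65.0, 59.95 and 62.6 FPKM in siE2F7 at 0, 3 and 12 h, against 74.2, 70.1 and 76.2 FPKM in siNT. All siE2F7 libraries were lower (log2 change -0.23 ± 0.06; limma, adjusted p = 0.0491). The call ended after median centring (adjusted p = 0.0547) and without the libraries of 0, 3 or 12 h (adjusted p from 0.11 to 0.205). PRPF8, the large U5 protein at the catalytic centre, was at 57.0, 60.9 and 60.8 FPKM in siE2F7, against 51.0, 59.2 and 59.0 FPKM in siNT (95% interval of the log2 change -0.07 to 0.23). The tri-snRNP genes PRPF3, PRPF4, PRPF6 and PRPF31 had log2 changes of 0.02, -0.05, -0.09 and 0.08.

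Single times were set 1 library against 1 and have no test. A log2 ratio of 0.5 or more was found in 1 member at 0 h (HNRNPA0; 3.81% of all genes passed it), in 3 at 3 h (HNRNPAB, HNRNPA0 and HNRNPH2; 5.35%) and in 0 at 12 h (6.77%). A ratio of -0.5 or less was found in SNRPD2 alone at each time (6.28%, 5.77% and 9.01% of all genes at 0, 3 and 12 h). The median log2 ratio of members was 0.03, 0.14 and 0.06 at 0, 3 and 12 h, beside -0.04, 0.00 and -0.04 for all genes. By family, the medians at 0, 3 and 12 h were 0.13, 0.21 and 0.12 in hnRNP genes and 0.04, 0.17 and 0.00 in SRSF genes. They were -0.12, 0.18 and 0.03 in SNRP genes, 0.05, 0.09 and 0.08 in SF3A and SF3B genes, and -0.02, 0.04 and 0.02 in PRPF genes.

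Across the release, a few members moved in both arms. These values compare tables that may not have been scaled together, and have no test. PRPF38B, a homologue of a B complex protein, was at 15.5, 35.3 and 20.5 FPKM in siE2F7 at 0, 3 and 12 h, and at 15.7, 30.6 and 23.3 FPKM in siNT. Its 3 h level was the highest of both arms. PRPF4B, a kinase of the tri-snRNP, was at 10.1, 15.9 and 14.2 FPKM in siE2F7 and at 8.53, 16.2 and 13.4 FPKM in siNT. PRPF40B, related to a U1 snRNP protein and the member with the lowest level, dipped instead, with 2.90, 1.54 and 3.20 FPKM in siE2F7 and 2.97, 1.64 and 3.09 FPKM in siNT. HNRNPH1, which binds G-rich RNA, was highest at 12 h, with 121.9, 133.3 and 180.3 FPKM in siE2F7 and 111.2, 121.8 and 170.2 FPKM in siNT.

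These 4 were the members with a log2 difference of at least 0.5 from 0 h in both arms, either way. At 3 h, 2 of 64 members were higher and 1 was lower by this measure (4.22% and 4.71% of all genes). At 12 h 1 was higher and 0 were lower (4.15% and 7% of all genes). These counts are too small to set the members apart from all genes. Over the 64 members the 3 h minus 0 h differences of both arms had a Pearson correlation of 0.81 and a Spearman correlation of 0.63, and those of 12 h minus 0 h 0.75 and 0.67. Genes of a library are not independent replicates. The median difference of members was 0.04 at 3 h and 0.05 at 12 h in siE2F7, and -0.08 and 0.06 in siNT, with all genes at -0.05 and -0.05 in siE2F7 and -0.10 and -0.03 in siNT.

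**Figure D5:**
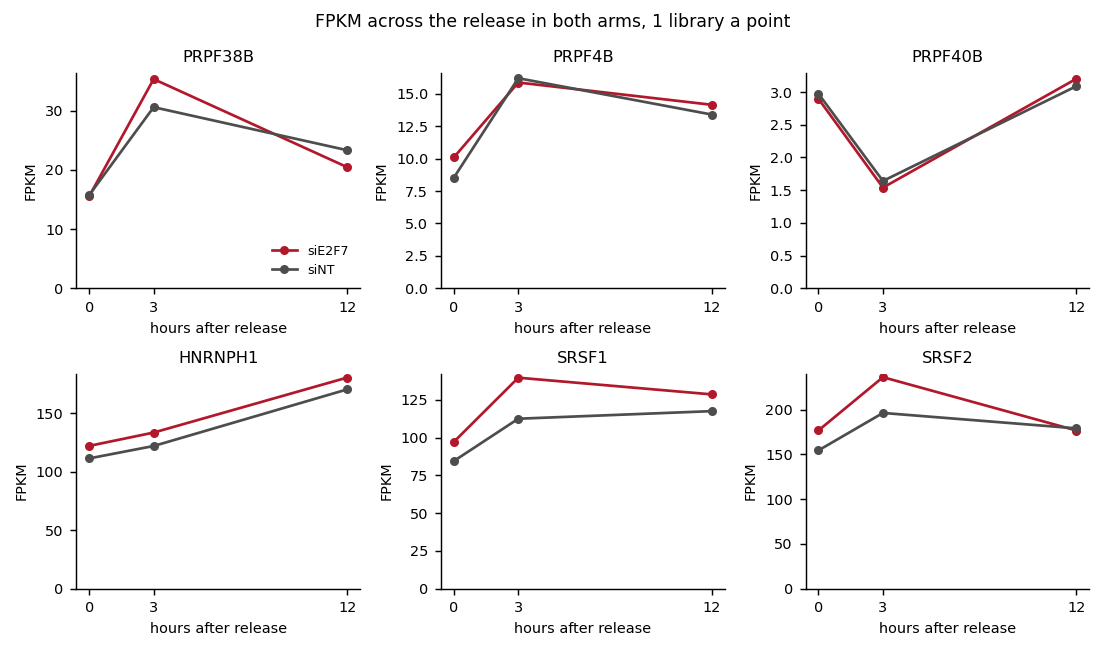
FPKM (y axes, linear from 0) at 0, 3 and 12 h after release (x axes) of the 4 members that moved by at least 0.5 on the log2 scale in both arms and of SRSF1 and SRSF2, with 1 library a point. PRPF38B and PRPF4B are higher at 3 h than at 0 h, PRPF40B is lower, and HNRNPH1 is highest at 12 h, in siE2F7 and siNT alike.

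Splicing genes outside the name pattern were read from 9 protein lists, of which 180 genes were listed at all times. Of these 13 rose and 8 fell (7.22% and 4.44%; 6.76% and 7.13% of all genes), with a median log2 change of 0.06. These calls come from the full fit, and many calls of named genes were lost in the alternatives described at the end. Among U1 and U2 associated factors 3 of 18 rose (16.7%) and 1, PHF5A, fell (5.56%). LUC7L2, a U1 snRNP factor, was at 30.9, 40.7 and 37.8 FPKM in siE2F7 at 0, 3 and 12 h, against 22.3, 23.9 and 23.8 FPKM in siNT (log2 change 0.63 ± 0.08; limma, adjusted p = 0.00366). CHERP and U2SURP, both of the U2 snRNP, rose by 0.41 ± 0.10 and 0.30 ± 0.07. The loci of LUC7L2 and CHERP are shared with C7orf55 and C19orf44, and reads there may have been split.

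Later-acting factors went both ways. In the list of the PRP19 complex and catalytic stages 3 of 33 rose (9.09%, beside 6.76% of all genes) and 2 fell (6.06%, beside 7.13%). The rises were RBMX2, DHX8 and ZCCHC8, with log2 changes of 0.37, 0.35 and 0.32. The falls were BUD31 at -0.43 ± 0.10 and SLU7, which acts in the second step, at -0.39 ± 0.07 (limma, adjusted p = 0.0313 and 0.0161). BUD31 had log2 ratios of -0.27, -0.29 and -0.72 at 0, 3 and 12 h, and its locus is shared with several genes, among them CPSF4. Of 16 tri-snRNP factors 1 fell, SMU1 at -0.40 ± 0.07 (adjusted p = 0.0144). Of 11 exon junction genes 1 rose, the export adaptor ALYREF (0.36 ± 0.07; adjusted p = 0.0178). Of 12 LSM genes 1 fell, LSM10, which belongs to the U7 snRNP of histone mRNA processing, at -0.52 ± 0.12 (adjusted p = 0.0304). Its log2 ratios were -0.14, -0.75 and -0.66 at 0, 3 and 12 h. In BUD31, SLU7, DHX8, ZCCHC8 and LSM10 the libraries of both arms overlap.

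Regulators and assembly factors changed in small numbers. In the list of hnRNPs under other names and splicing regulators 5 of 45 rose (11.1%, beside 6.76% of all genes) and none fell (7.13% of all genes). Among the 5 were PTBP2 (0.41 ± 0.08) and FUBP1 (0.35 ± 0.06). SCAF1 was the single gene called among 19 SR-like proteins and SR kinases, with 8.91, 7.19 and 7.56 FPKM in siE2F7 at 0, 3 and 12 h, against 13.2, 11.9 and 14.1 FPKM in siNT (log2 change -0.72 ± 0.09; limma, adjusted p = 0.00384). Of 17 snRNP assembly genes 1 fell, STRAP, a partner of the SMN complex that loads Sm rings, at -0.36 ± 0.06 (adjusted p = 0.0136). Minor spliceosome proteins had 1 of 9 that rose, PDCD7 (0.31 ± 0.08), and 1 that fell, SCNM1 (-0.42 ± 0.09), which shares its locus with LYSMD1. Of 19 spliceosomal snRNA entries 1, RNU6ATAC, was listed at all times, at 0 in every siNT library and at 1.97, 1.89 and 2.41 FPKM in siE2F7, so no fold is given. It was called higher (limma, adjusted p = 0.00418), with its siNT values set by the 0.1 added to each FPKM. The entry is short (chromosome 9, 137029562 to 137029686) and its levels are low. Depth is unknown, so how few fragments these values stand for cannot be told.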

How the data were processed

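RNA from 6 libraries of U2OS cells was analysed from the FPKM values deposited by the authors, 1 gene table per library. CASAVA 1.8 and hg19 (GRCh37) are listed in the submitters' processing notes, and per the file headers the columns are those of Cuffdiff output. Aligner, annotation and filters: not given in the sources used here. The tables hold no counts, so depth is unknown, and low values showed no whole-read steps at 0 h, the time looked at. Each time lists its own genes (12799, 12475 and 12299 at 0, 3 and 12 h), and 11886 are listed at all. No member was at 0 in any library.

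Knockdown was tested with limma 3.58.1 (R 4.3.3) after adding 0.1 to each FPKM and taking log2, with arm as the term tested, a block for time and a variance trend (2 residual and 5.41 prior degrees of freedom), adjusted over all 11886 genes. The fit was tested on simulated data. Alternatives changed the scaling, the pseudocount, the filters, the variance trend and the block, or left out a time. The members and lists were chosen with earlier results of these data known. Named genes are E2F7, every called member, the 3 highest, 3 lowest and 2 most abundant of each family, members with a log2 ratio of at least 0.5 in size at any time, and up to 3 called genes each way per other list; further members are named to describe their role, chosen after their values were seen. Start positions count from 1. Promoter windows are from RefSeq on GRCh38.p14, and were used for letters only. Protein sequences were not analysed here.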

Additional observations from a re-analysis of the deposited data

Results flagged for a closer look

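Among members, 2 core Sm genes had opposite log2 ratios of siE2F7 over siNT, each at least 0.2 in size, at different times. SNRPD1 stood at -0.22 at 0 h and 0.29 at 3 h. SNRPE stood at 0.21 at 3 h and -0.23 at 12 h. The share of all genes with such a change of sign was not counted, so the 2 have no background beside them. Of 77 ribosomal protein genes, 1, 72 and 2 were higher in siE2F7 at 0, 3 and 12 h. Each ratio rests on 1 library against 1, and the difference between times was not tested.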

How the results depend on the processing

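SNRPD2 kept its call and direction in all 12 alternatives tried. Members called higher, 6 as reported, numbered 1 without the variance trend, 0 without the time block and 2 without the libraries of 0, 3 or 12 h; in the other alternatives they numbered 4 to 8. Members called lower, 2 as reported, numbered 1 with median centring, a pseudocount of 0.01, genes listed at any time let in, no variance trend, no time block, or any 1 time left out, each time with PRPF19 lost. Of all genes, 803 were called higher as reported, against 400 without the trend, 15 without the block and 332 without 3 h, and 847 lower, against 452 without the trend, 17 without the block, and 538, 431 and 560 without 0, 3 and 12 h. Leaving out a time leaves fewer libraries; other causes were not tested. The median log2 change of members stayed between 0.06 and 0.10. No paired analysis by replicate number was possible because each combination of arm and time has 1 library. Depth is unknown, so no counting error is given.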
